A study of Mus musculus with 4 samples.

Results

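The TRBV13 family comprises the T cell receptor beta chains whose V gene is named TRBV13-1, TRBV13-2, TRBV13-3 or, in a combined name, TRBV12-2+TRBV13-2 in the deposited contig lists. By these names 165 of 713 assembled beta chains belonged to the family, 93 of 340 in the WT library and 72 of 373 in the p53 KO library, and they lay in 162 of 677 cells with a beta chain. Of the 165 contigs, 56 were named TRBV13-1, 13 TRBV13-2, 70 TRBV12-2+TRBV13-2 and 26 TRBV13-3. The names were given by the authors' processing and not by any measured level.

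Both libraries came from whole tumours grown from MC38, a mouse colon carcinoma cell line, in C57BL/6J mice. The WT group carried unedited MC38 cells and the p53 KO group carried MC38 cells whose p53 gene, a tumour suppressor, had been knocked out by CRISPR-Cas9. Anti-PD-1, an antibody against an inhibitory receptor of T cells, was given to both groups, so no group without it enters the comparison. T cells are host cells, and the knockout was in the tumour cells. Neither the number of mice behind a library nor the number of edited clones is given in the labels. Single cells were processed by the 10x Chromium 5′ method, in which a barcode marks the cell and a unique molecular identifier (UMI) marks the RNA molecule, and T cell receptor (TCR) libraries were made beside gene expression libraries. The 2 TCR libraries were used. Gene expression was not analysed here, so neither the knockout nor the identity of the cells was checked by other genes.

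A beta chain is assembled in a developing T cell from 1 V, 1 D and 1 J segment. The V segment encodes the loops CDR1 and CDR2, which mostly touch the MHC molecule. The junction of the segments encodes CDR3, which lies over the bound antigen and varies most, because bases are trimmed and added at each join. The mouse TRBV13 segments are the former V-beta-8 family, long known from mouse responses to bacterial superantigens and from the beta chains of invariant natural killer T (NKT) cells. A distinct beta chain is taken here as 1 combination of V name, J name and CDR3 nucleotides, counted once per library, with the contig of most UMIs standing for a cell that had several. Intervals of shares are exact (Clopper-Pearson) 95% intervals. They cover counting error only, and with 1 library per genotype no difference between the genotypes was tested.

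The 3 V segments are neighbours on mouse chromosome 6 in RefSeq's annotation of GRCm38.p6, the assembly of the mm10 build. TRBV13-1 (Tcrb-V8.3) lies at chr6:41116036-41116468, TRBV13-2 (Tcrb-V8.2) at chr6:41121396-41121832 and TRBV13-3 (Tcrb-V8.1) at chr6:41130147-41130585. TRBV12-2 (Tcrb-V5.1), the other gene of the combined name, lies between the first and second of these at chr6:41118864-41119364. The combined name itself is no entry of that annotation.

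Every contig of a name carried the same V region of 270 bases, read up to the CDR3. The V regions named TRBV13-2 and TRBV12-2+TRBV13-2 differed at 0 of 270 bases, so the combined name held the coding V region of TRBV13-2 in all 70 contigs. TRBV13-2 and TRBV13-3 differed at 23 bases and 9 of 90 residues. TRBV13-1 stood further off, with 32 bases and 18 residues different from TRBV13-2, and 41 bases and 22 residues different from TRBV13-3. The loop sequences show where the segments part; capitals mark the bases at which the 3 differ.
CDR1 of TRBV13-1: aataGccaCAacTaC
CDR1 of TRBV13-2 and of the combined name: aataAccaCAacAaC
CDR1 of TRBV13-3: aataAccaTGacTaT
CDR2 of TRBV13-1: tcatatgGTgctgGcaAc
CDR2 of TRBV13-2 and of the combined name: tcatatgGTgctgGcaGc
CDR2 of TRBV13-3: tcatatgTCgctgAcaGc
In CDR1 5 of 15 bases varied, and in CDR2 4 of 18.

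The junctions below show the V start, the J end and the bases between them. Capitals mark the bases between the V start and the J end that were recognised in the chain. These hold the D segment and any added bases. Lower case at the left is V and at the right is J. V was matched over the first 15 bases only, so the capitals can also hold V bases beyond these. Listed are the family chains found in 4 or more cells under 1 V name, 4 in WT and 1 in p53 KO. With its 2 names joined, a TRBV13-2 chain with TRBJ2-3 in WT also had 4 cells and is not listed.
WT, TRBV12-2+TRBV13-2 with TRBJ2-2, 6 cells: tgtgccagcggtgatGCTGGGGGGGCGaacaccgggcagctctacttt
WT, TRBV12-2+TRBV13-2 with TRBJ2-7, 4 cells: tgtgccagcggtgGTtatgaacagtacttc
WT, TRBV13-1 with TRBJ2-2, 4 cells: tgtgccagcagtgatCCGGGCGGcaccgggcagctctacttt
WT, TRBV13-3 with TRBJ2-1, 4 cells: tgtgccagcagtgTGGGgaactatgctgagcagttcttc
p53 KO, TRBV13-1 with TRBJ2-4, 4 cells: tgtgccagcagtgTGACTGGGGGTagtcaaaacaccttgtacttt
Each of the 5 had another junction, and the number of bases in capitals ran from 2 to 12.

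The family supplied about the same share of the distinct beta chains in both libraries. It gave 61 of 232 in WT (26.3%, 20.7 to 32.5) and 57 of 218 in p53 KO (26.1%, 20.4 to 32.5). By cells the shares lay further apart, at 89 of 326 in WT (27.3%, 22.5 to 32.5) and 69 of 351 in p53 KO (19.7%, 15.6 to 24.2), and the intervals overlap. The p53 KO library also held 2 chains of other V names with 31 and 30 cells. Without the 2 largest chains of other names in each library, the family was in 69 of 290 p53 KO cells (23.8%) and 89 of 312 WT cells (28.5%). That step was chosen after the data were seen.

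TRBV12-2+TRBV13-2 was the most used name of the family in both libraries. It was in 28 WT chains (12.1%, 8.17 to 17.0) and 24 p53 KO chains (11.01%, 7.18 to 15.9), and in 42 and 27 cells. TRBV13-1 followed with 21 WT chains (9.05%, 5.69 to 13.5) and 17 p53 KO chains (7.80%, 4.61 to 12.2). TRBV13-3 was in 7 WT chains (3.02%, 1.22 to 6.12) and 11 p53 KO chains (5.05%, 2.55 to 8.85), yet in 12 cells of each library. The plain name TRBV13-2 was in 5 chains of each library. Each name's interval overlapped that of its neighbour in this order in both libraries.

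Between the libraries no member found often enough to be rated changed its share by 1.5 times. Of the 7 TRBV names found in 20 or more distinct chains over both libraries, 28.6% passed a ratio of 1.5 between the p53 KO and WT shares in either direction, namely TRBV12-2 and TRBV3, neither a member. TRBV13-1 and the combined name were the 2 members among the 7 and passed 0 times, with ratios of p53 KO to WT of 0.862 and 0.912. TRBV13-3 had a ratio of 1.67, but its 18 chains were too few for this rule.

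**Figure D1:**
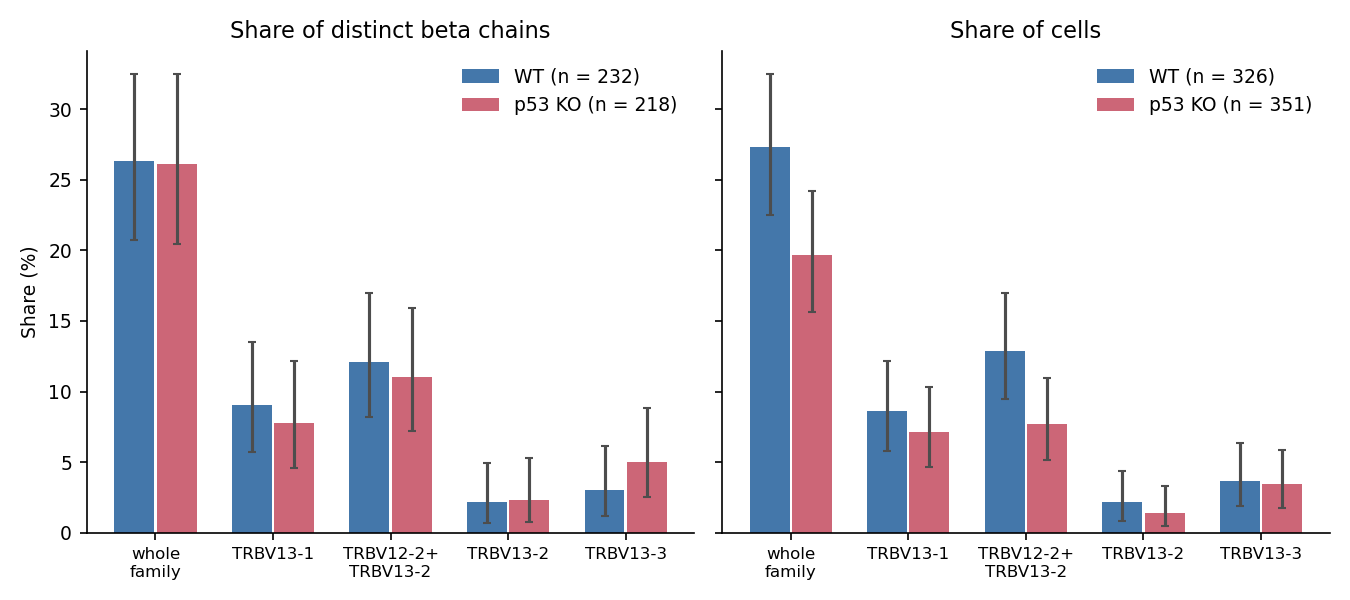
Share of distinct beta chains (left) and of cells with a beta chain (right) held by the TRBV13 family and by each of its names, in percent, for the WT and p53 KO libraries; bars are shares and lines exact 95% intervals. The family bars stand at 26.3% and 26.1% by chains and at 27.3% and 19.7% by cells, and the order of the names is that of the text.

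The 2 names of TRBV13-2 divided single chains. In WT 3 CDR3 sequences, with TRBJ2-2, TRBJ2-3 and TRBJ2-5, were found under both names in 7, 4 and 3 cells, and in p53 KO 1 sequence with TRBJ2-4 was found under both in 2 cells. The largest family chain of WT was 1 of them: beside its 6 cells under the combined name it had 1 cell under the plain name. That cell carried another alpha chain than the 6, and the TRBJ2-5 sequence also had 2 alpha chains. Counted once across names, TRBV13-2 had 30 WT chains of 229 (13.1%) and 28 p53 KO chains of 217 (12.9%), and was the most used segment of the family. Contigs with the plain name rested on fewer UMIs, with a median of 2 in each library against 4 in WT and 6.5 in p53 KO for the combined name. They had a median length of 557 and 563 bases against 594 and 588.5. Of the plain-name contigs 3 of 8 in WT and 1 of 5 in p53 KO reached 3 UMIs, so chains under that name rest on little RNA.

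Expansion, the finding of 1 chain in 2 or more cells, was found at shares whose intervals overlap between the family and the other V names. In WT 13 of 61 family chains (21.3%, 11.9 to 33.7) and 37 of 171 other chains (21.6%, 15.7 to 28.6) were expanded. In p53 KO the counts were 9 of 57 (15.8%, 7.48 to 27.9) and 32 of 161 (19.9%, 14.01 to 26.9). By deposited clonotypes the p53 KO family count was 4 of 43 (9.30%), and without possible multiplets it was 6 of 55 (10.9%). The other names were not counted in these ways, so these values have no counterpart. The largest family chain had 6 cells in WT, or 7 with its 2 names joined, and the largest other chain there had 7. In p53 KO the largest family chain had 4 cells and the largest other chain 31. Chains of 10 or more cells numbered 0 in the family in either library and 3 among the other names, all in p53 KO. Expanded chains held 41 of 89 family cells in WT (46.1%, 35.4 to 57.0) and 21 of 69 in p53 KO (30.4%, 19.9 to 42.7). For the other names these shares were 43.5% (37.1 to 50.03) for WT and 54.3% (48.2 to 60.2) for p53 KO. Cells of 1 chain are not independent, so these intervals by cells are too narrow and no difference is read from them. In p53 KO 61 of the 153 cells in expanded chains of other names belonged to the 2 chains of 31 and 30 cells.

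By member, expanded chains were 4 of 21 for TRBV13-1, 6 of 28 for the combined name, 1 of 5 for TRBV13-2 and 2 of 7 for TRBV13-3 in WT. In p53 KO they were 5 of 17, 3 of 24, 0 of 5 and 1 of 11. By beta chain, TRBV13-1 thus had most expanded chains in p53 KO, where 13 of its 25 cells belonged to them. In WT the combined name had most, and 20 of its 42 cells belonged to them. Of the 5 TRBV13-1 chains in p53 KO, the TRBJ1-5 chain of 3 cells was found with 2 alpha chains. So were the TRBJ2-1 and TRBJ2-4 chains of 2 cells each. An expanded chain is thus not always 1 clonotype, and the members were not ranked by clonotypes. The members' intervals overlap within each library.

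**Figure D2:**
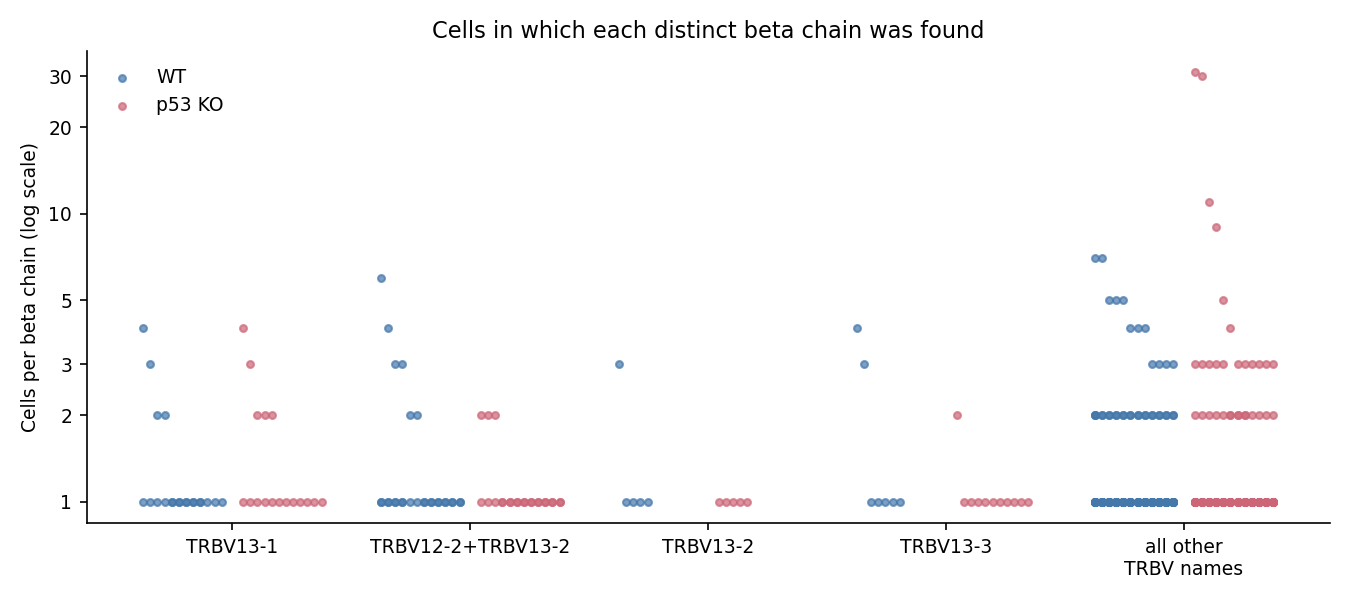
Number of cells (log scale) in which each distinct beta chain was found, by V name and library, with 1 point for each chain and all names outside the family at the right. Family chains reach 6 cells in WT and 4 in p53 KO, and only other names reach 10 or more cells, in p53 KO.

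The alpha chain was recovered less often beside a family beta chain in p53 KO than in WT. It was found in 82 of 89 WT family cells (92.1%, 84.5 to 96.8) and 48 of 69 p53 KO family cells (69.6%, 57.3 to 80.1), and these intervals do not overlap. For the other V names the shares were 82.3% (76.8 to 86.9) for WT and 74.8% (69.3 to 79.8) for p53 KO, whose intervals overlap. By member the counts were 27 of 28 WT and 15 of 25 p53 KO cells for TRBV13-1. They were 39 of 42 and 21 of 27 for the combined name, and 9 of 12 and 7 of 12 for TRBV13-3. Cells with the plain name TRBV13-2 had an alpha chain in 7 of 7 and 5 of 5. Only the TRBV13-1 intervals, 81.7 to 99.9 and 38.7 to 78.9, do not overlap between the libraries. The median UMIs of the beta contig were 7 in WT and 5 in p53 KO for TRBV13-1, 4.5 and 3 for TRBV13-3, and 4 and 7 for the combined name. The reason was not tested.

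The J segment gives the end of CDR3. J segments lie downstream of the V segments in 2 clusters, each with its own D and C segment: TRBD1 with the TRBJ1 genes and TRBC1, then TRBD2 with the TRBJ2 genes and TRBC2. TRBJ2 genes dominated in the family, with 46 of 61 WT chains (75.4%, 62.7 to 85.5) and 42 of 57 p53 KO chains (73.7%, 60.3 to 84.5). Among the other names they took 70.2% and 67.1%. The 3 genes most used in WT were TRBJ2-7 in 14 chains, TRBJ2-5 in 10 and TRBJ2-4 in 7. In p53 KO they were TRBJ2-1 in 13 and TRBJ2-7 in 10, followed by TRBJ1-1 and TRBJ2-4 with 7 each. TRBJ2-1 was in 6 of 61 family chains in WT (9.84%, 3.70 to 20.2) and 13 of 57 in p53 KO (22.8%, 12.7 to 35.8), beside 9.94% and 11.8% of the other chains. TRBJ1-1 was in 1 of 61 WT family chains (1.64%, 0.0415 to 8.80) and 7 of 57 from p53 KO (12.3%, 5.08 to 23.7), beside 11.1% and 10.6%. Both pairs of family intervals overlap.

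By member the J counts are small. TRBJ2-1 was in 5 of 17 p53 KO and 2 of 21 WT chains of TRBV13-1, in 4 of 24 and 2 of 28 of the combined name, in 2 of 5 and 0 of 5 of the plain name TRBV13-2, and in 2 of 11 and 2 of 7 of TRBV13-3. All 7 TRBJ1-1 chains of p53 KO belonged to the combined name (5) or TRBV13-3 (2), and 0 to TRBV13-1. In TRBV13-3 the TRBJ1 cluster took 6 of 11 p53 KO chains (54.5%, 23.4 to 83.3) and 1 of 7 WT chains (14.3%, 0.361 to 57.9), and these intervals overlap. Chains of the plain name TRBV13-2 used TRBJ2 genes only, 5 of 5 in each library, while the combined name used TRBJ1 genes in 8 of 28 and 6 of 24.

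**Figure D3:**
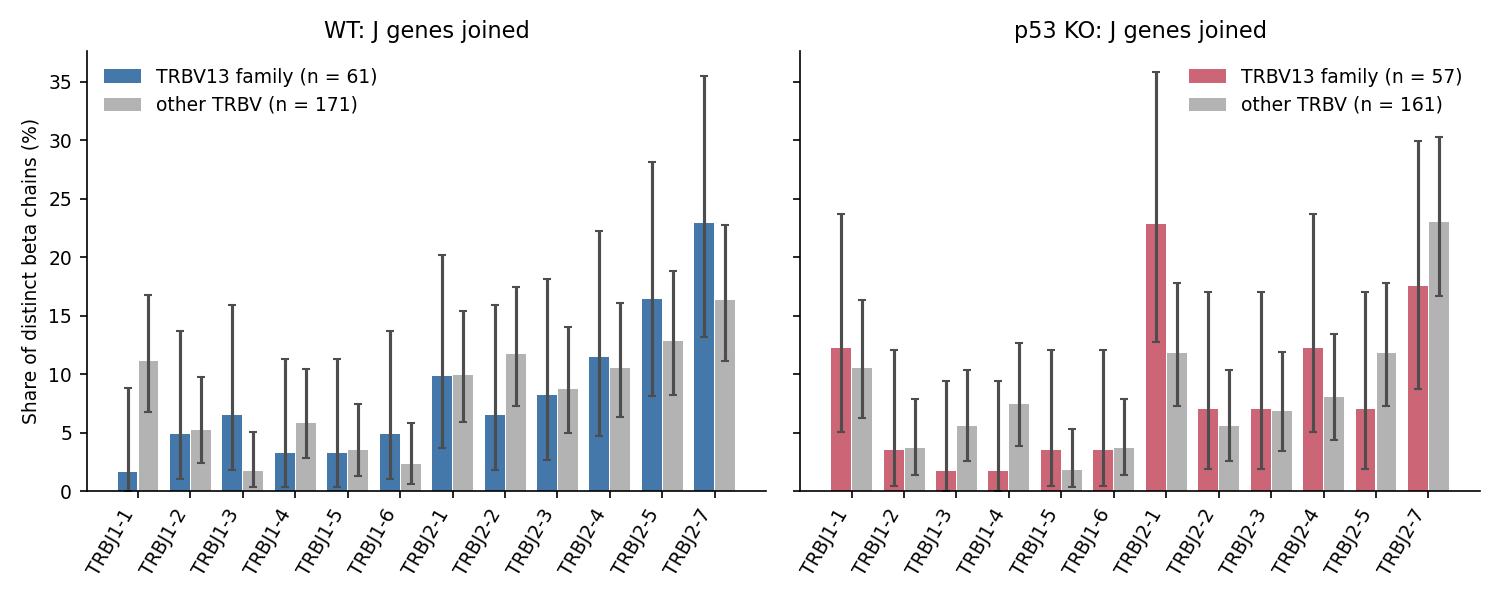
Share of distinct beta chains joined to each TRBJ gene, in percent, for the TRBV13 family (coloured) and all other V names (grey), in WT at the left and p53 KO at the right; lines are exact 95% intervals. The tallest family bars are TRBJ2-7 in WT, with 14 of 61 chains, and TRBJ2-1 in p53 KO, with 13 of 57.

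The D and C names kept to the order of the locus. TRBD2, which lies downstream of the TRBJ1 genes, was joined to a TRBJ1 gene in 0 of the 15 family chains in which it was named. TRBD1 was joined to TRBJ1 in 12 and to TRBJ2 in 11. All 30 TRBJ1 chains carried TRBC1 and all 88 TRBJ2 chains carried TRBC2. A D gene was named in 18 of 61 WT chains (29.5%, 18.5 to 42.6) and 20 of 57 p53 KO chains (35.1%, 22.9 to 48.9), against 24.0% and 18.0% of the other chains.

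CDR3 length did not set the family apart. The mean was 13.9 amino acids (SD 1.52 over 61 chains) in WT and 14.1 (SD 1.41 over 57) in p53 KO, beside 13.9 and 14.04 for the other names, and the range was 10 to 17. Of the members TRBV13-1 was longest on average, at 14.3 (SD 1.32, 38 chains of both libraries), against 13.8 for TRBV13-2 under both names (SD 1.48, 62 chains) and 14.1 for TRBV13-3 (SD 1.63, 18 chains). These differences are smaller than the SD among chains, which is a spread of chains and not the error of a mean. They were not tested.

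**Figure D4:**
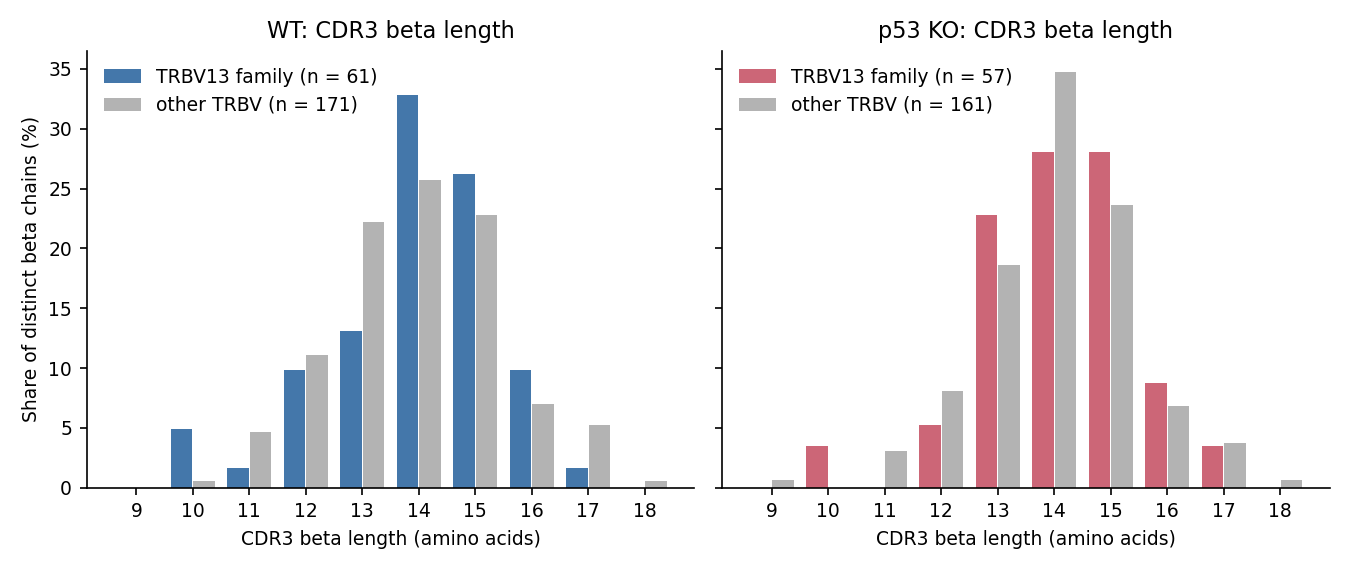
Share of distinct beta chains by CDR3 length in amino acids, in percent, for the TRBV13 family (coloured, 61 WT and 57 p53 KO chains) and all other V names (grey). Family and other chains both centre on 14 amino acids, and family chains range from 10 to 17.

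The first residues of the family's CDR3 came from the V segment, as the most common starts show; capitals are not used, since no base of them is changed.
TRBV13-1 and TRBV13-3: tgtgccagcagtgat
TRBV13-2 under both names: tgtgccagcggtgat
The codon before the last of each start gives serine in TRBV13-1 and TRBV13-3 and glycine in TRBV13-2. That residue was seldom lost: glycine was there in 61 of 62 TRBV13-2 chains. Serine was there in 37 of 38 TRBV13-1 and 16 of 18 TRBV13-3 chains. The fifth codon gives aspartate, and it was often trimmed. Aspartate stood at position 5 in 30 of 61 WT chains (49.2%, 36.1 to 62.3) and 28 of 57 p53 KO chains (49.1%, 35.6 to 62.7), against 2.34% and 3.73% of other chains, whose V segments are different. By segment over both libraries aspartate stood there in 20 of 38 TRBV13-1, 30 of 62 TRBV13-2 and 8 of 18 TRBV13-3 chains. Where aspartate was absent, glutamate stood there in 15 chains and glycine in 18, 12 of these in TRBV13-2. All 15 bases of the V start were kept in 43 of 118 chains (36.4%, 27.8 to 45.8). By segment these were 17 of 38 TRBV13-1, 20 of 62 TRBV13-2 and 6 of 18 TRBV13-3 chains. Aspartate at position 5 was in 58 of 118, so in some chains its codon was completed by bases after a trimmed V start.

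Between the V start and the J end lay a median of 10 bases in each library, with a range of 2 to 21. In 18 of 118 chains there were 6 or fewer, 11 in WT and 7 in p53 KO. A pair of glycines between position 5 and the sixth residue from the end was in 34 of 118 family CDR3s (28.8%) and in 28.3% of the others. Tryptophan was in 19.5% of the family's and 20.8% of the others'. Proline in the same stretch was in 13.6% (7.95 to 21.1) against 22.0% (17.6 to 26.8), and 0 of 18 TRBV13-3 chains had it, which allows up to 16.7%.

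Few CDR3 sequences of the family were alike. Identical amino acids from different nucleotides were found 2 times, both in TRBV13-2. The first pair lay in WT, with TRBJ2-5 and 14 amino acids, in 1 cell each; the second had 10 amino acids with TRBJ2-7, in 4 WT cells and 1 p53 KO cell, and is the only family CDR3 seen in both libraries by amino acids. Positions are counted from 1 at the first base of the CDR3.
WT, TRBJ2-5, 1 cell: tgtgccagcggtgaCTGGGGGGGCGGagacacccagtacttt
WT, TRBJ2-5, 1 cell: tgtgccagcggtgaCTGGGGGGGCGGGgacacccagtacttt
p53 KO, TRBJ2-7, 1 cell: tgtgccagcggtgGGtatgaacagtacttc
WT, TRBJ2-7, 4 cells: tgtgccagcggtgGTtatgaacagtacttc
The first pair differs by A27G and the second, from p53 KO to WT, by G15T. Between V and J the second pair has 2 bases, the fewest in the family. Its alpha chains, TRAV12D-2 with TRAJ21 in both libraries, also gave 1 amino acid sequence and differed by G15C, counted in the same way. The alpha chains of the first pair both used TRAJ31 but different V genes, TRAV9N-4 and TRAV6-7-DV9. Over all 112 distinct family CDR3s, 1 pair of the same V segment and length differed at a single residue, in TRBV13-1 with TRBJ1-3 in WT (P5V). Among 331 other CDR3s there were 7 such pairs. No CDR3 nucleotide sequence, 0 in the family and 0 outside it, was shared between the libraries, and 0 cell barcodes were shared.

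The alpha partners were counted over deposited clonotypes of cells with both chains, of which the family had 58 of 211 in WT and 43 of 168 in p53 KO. Here TRBV13-2 stands for both of its names. TRAV6 genes led in WT with 10 clonotypes, followed by TRAV14 with 9 and TRAV13 with 8. In p53 KO TRAV14 and TRAV3 had 7 each and TRAV6 had 6. Over both libraries TRAV14 was in 15.8% of family and 12.2% of other clonotypes, TRAV6 in 15.8% and 12.9%, TRAV3 in 13.9% and 8.27%, and TRAV13 in 10.9% and 6.47%. The intervals of family and other clonotypes overlap for each of these 4.

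The alpha J genes differed more between the members. TRAJ23 was in 7 of 32 TRBV13-2 clonotypes in WT (21.9%, 9.28 to 39.97) and 5 of 24 in p53 KO (20.8%, 7.13 to 42.2). It was in 0 of 31 TRBV13-1 and 0 of 14 TRBV13-3 clonotypes, which allow up to 9.68% and 21.4%. Beside other beta chains it was in 8 of 153 in WT (5.23%, 2.28 to 10.04) and 12 of 125 in p53 KO (9.60%, 5.06 to 16.2). Both libraries thus had the higher share in TRBV13-2, and within each library the intervals overlap. Counting each beta chain once, TRAJ23 accompanied 6 of 27 TRBV13-2 chains in WT and 4 of 23 in p53 KO. TRAJ23 was singled out after the data were seen. Of the 17 TRAJ names in 10 or more clonotypes, 23.5% had a share in TRBV13-2 at least 1.5 times that in other TRBV: TRAJ43 (4.96), TRAJ23 (2.98), TRAJ21 (2.26) and TRAJ30 (2.13). In TRBV13-1 that share was also 23.5%: TRAJ7 (3.45), TRAJ18 (2.69), TRAJ30 (2.56) and TRAJ43 (2.24).

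Of the 12 TRBV13-2 clonotypes with TRAJ23, 10 had alpha CDR3s of the same form, with 13 amino acids and glycine at position 5, 6 in WT and 4 in p53 KO. Their 9 nucleotide sequences follow, with the first 3 codons and the J end in lower case and the bases between in capitals.
WT, TRAV3D-3, 6 cells: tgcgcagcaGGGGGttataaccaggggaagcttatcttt
WT, TRAV3D-3, 1 cell: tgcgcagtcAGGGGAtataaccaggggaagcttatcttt
WT, TRAV3-3, 1 cell: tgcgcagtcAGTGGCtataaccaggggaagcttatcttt
WT, TRAV7D-2, 1 cell: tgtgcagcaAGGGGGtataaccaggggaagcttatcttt
WT, TRAV14D-1, 1 cell: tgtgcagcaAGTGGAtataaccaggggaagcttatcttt
WT, TRAV14N-3, 3 cells: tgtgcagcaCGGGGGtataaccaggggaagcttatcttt
p53 KO, TRAV3-1, 1 cell: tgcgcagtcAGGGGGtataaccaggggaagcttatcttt
p53 KO, TRAV3-3, 2 cells: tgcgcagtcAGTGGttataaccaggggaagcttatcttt
p53 KO, TRAV14D-2, 1 cell: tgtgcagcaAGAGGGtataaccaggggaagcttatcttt
They code for 5 amino acid sequences that differ from each other at 1 or 2 residues, at positions 3 and 4, and 3 of the 5 were found in both libraries. One, with alanine and arginine at those positions, was written by 3 nucleotide sequences from 3 TRAV genes. The beta chains beside them were not alike: the 10 clonotypes, in 17 cells, had 9 distinct beta junctions of 14 to 16 amino acids. The same alpha form was in 9 of 278 clonotypes of other beta chains (3.24%, 1.49 to 6.06), 2 in WT and 7 in p53 KO, and 4 of these 9 had 1 of the 5 sequences by amino acids and 0 by nucleotides. It was in 10 of 56 TRBV13-2 clonotypes (17.9%, 8.91 to 30.4), and in 0 of 31 TRBV13-1 and 0 of 14 TRBV13-3 clonotypes. Of the 10, 2 in p53 KO were 1 receptor under both V names, with the same beta and alpha nucleotides, so it is counted 2 times. The form was noticed in these clonotypes, so the shares describe them and test nothing.

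TRBV13-1 was the only member seen with TRAJ7, in 3 of 19 WT clonotypes (15.8%, 3.38 to 39.6) and 2 of 12 in p53 KO (16.7%, 2.09 to 48.4). TRAJ7 was in 0 of 56 TRBV13-2 and 0 of 14 TRBV13-3 clonotypes, and 3 of 153 clonotypes of other beta chains had it in WT (1.96%) and 10 of 125 in p53 KO (8%). Counting each beta chain once, TRAJ7 accompanied 3 of 19 TRBV13-1 chains in WT, beside 3 of 148 other chains (2.03%), and 1 of 10 in p53 KO (10%), beside 9 of 118 (7.63%). In 3 of the 5 TRBV13-1 clonotypes with TRAJ7 the alpha V gene was of the TRAV14 family and the alpha CDR3 had proline at position 4. These 3 clonotypes hold 8 cells, and they include the most expanded TRBV13-1 chain of each library.
WT, beta with TRBJ2-2: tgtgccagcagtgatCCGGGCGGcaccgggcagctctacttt
WT, its alpha, TRAV14-3, 4 cells: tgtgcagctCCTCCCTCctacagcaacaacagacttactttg
p53 KO, beta with TRBJ2-4: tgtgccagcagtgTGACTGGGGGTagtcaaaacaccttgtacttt
p53 KO, its alpha, TRAV14D-3-DV8, 3 cells: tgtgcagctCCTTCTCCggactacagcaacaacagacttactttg
p53 KO, beta with TRBJ2-4: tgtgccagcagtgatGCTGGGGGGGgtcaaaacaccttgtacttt
p53 KO, its alpha, TRAV14-3, 1 cell: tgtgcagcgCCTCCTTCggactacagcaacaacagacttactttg
The last beta chain was found in a second p53 KO cell with another alpha chain, TRAV16 with TRAJ43. TRAJ7 with proline at position 4 was in 0 of 278 clonotypes of other beta chains, which allows up to 1.08%, and TRAV14 with TRAJ7 in 1 of 278 (0.360%, 0.00911 to 1.99). These 3 clonotypes too were singled out after the data were seen.

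TRAJ16 appeared in WT alone: in 4 of 32 TRBV13-2 clonotypes (12.5%, 3.51 to 29.0), 1 of 19 TRBV13-1 clonotypes and 0 of 153 of other beta chains. In p53 KO it was in 0 of 43 family and 0 of 125 other clonotypes, which allow up to 6.98% and 2.40%. In 3 of the 4 TRBV13-2 clonotypes the alpha CDR3 was 1 nucleotide sequence of 13 amino acids with no base between the first 3 codons and the J end, under TRAV7D-2 and TRAV10N. Of these 3 clonotypes, 2 were 1 receptor under both V names, with the same beta and alpha nucleotides, so it is counted 2 times. The beta chains of the 4 were short, 11 to 13 amino acids. Counting each beta chain once, TRAJ16 accompanied 3 of 27 TRBV13-2 chains in WT and 0 of 148 other chains. With 5 clonotypes, TRAJ16 had too few for the ratio rule applied to the TRAJ names.
TRAJ16 alpha: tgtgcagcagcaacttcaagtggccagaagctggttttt
In TRBV13-3, 2 of 7 WT clonotypes shared an alpha chain by amino acids, TRAV3-3 with TRAJ43, in 2 paired cells each. Their beta chains, both with TRBJ2-1 and 13 amino acids, had different junctions and were the 2 expanded TRBV13-3 chains of WT.
Alpha beside the beta chain of 3 cells: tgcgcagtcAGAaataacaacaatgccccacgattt
Alpha beside the beta chain of 4 cells: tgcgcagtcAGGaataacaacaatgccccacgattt
They differ by A12G. Counting each beta chain once over both libraries, TRAJ43 accompanied 2 of 13 TRBV13-3, 3 of 50 TRBV13-2 and 1 of 29 TRBV13-1 chains. Among other beta chains the count was 4 of 266. The TRAJ16 and TRAJ43 clonotypes too were singled out after the data were seen.

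**Figure D5:**
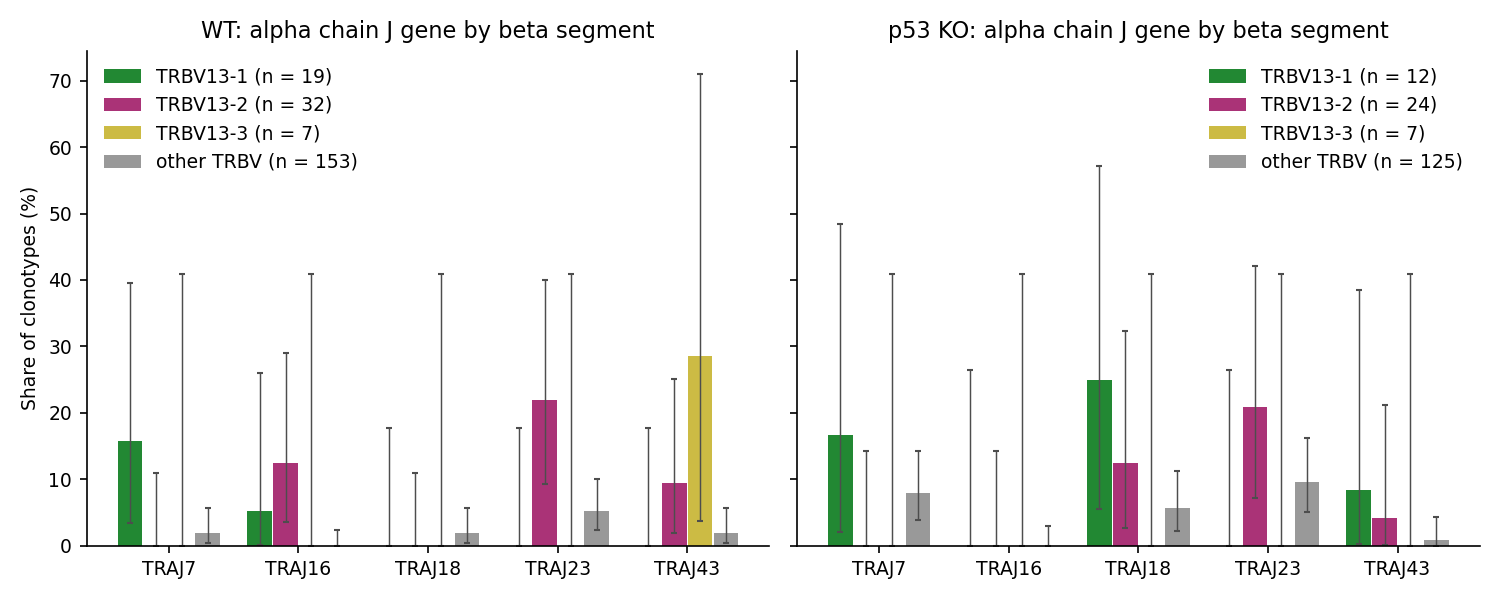
Share of clonotypes with each of 5 alpha J genes, in percent, by the beta segment they were paired with, in WT at the left and p53 KO at the right; lines are exact 95% intervals and the number of clonotypes of each segment is in the key. TRAJ23 bars stand only at TRBV13-2 and other V names, at 21.9% and 5.23% in WT and 20.8% and 9.60% in p53 KO, and TRAJ7 bars only at TRBV13-1 and other V names.

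Of the expanded family chains with an alpha chain in 2 or more cells, 10 of 13 in WT and 3 of 7 in p53 KO had a single alpha partner, and the other 3 and 4 were found with more than 1. A second alpha contig was present in 11 of 82 paired WT cells and 10 of 48 paired p53 KO cells of the family.

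Invariant NKT cells see lipids through an alpha chain of TRAV11 and TRAJ18. In p53 KO 4 of 48 paired family cells (8.33%, 2.32 to 19.98) carried that alpha chain, 2 with TRBV13-1 and 2 with the combined name, against 2 of 211 cells of other beta chains (0.948%, 0.115 to 3.38). In WT it was in 0 of 82 family cells, which allows up to 3.66%, and in 0 of 195 cells of other beta chains, which allows up to 1.54%. The exact WT family interval, 0 to 4.40%, overlaps that of p53 KO, and no difference was tested. The 4 cells had 1 alpha amino acid sequence written by 4 nucleotide sequences, and 4 different beta junctions.
TRBV12-2+TRBV13-2 with TRBJ2-4: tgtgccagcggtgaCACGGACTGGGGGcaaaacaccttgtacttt
TRBV12-2+TRBV13-2 with TRBJ1-5: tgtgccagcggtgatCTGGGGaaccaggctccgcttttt
TRBV13-1 with TRBJ2-7: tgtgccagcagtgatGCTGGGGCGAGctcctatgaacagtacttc
TRBV13-1 with TRBJ2-7: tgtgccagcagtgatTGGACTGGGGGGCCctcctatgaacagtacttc
Their alpha chains rested on 1 to 3 UMIs and their beta chains on 1 to 10. TRAV1 with TRAJ33, which marks mucosal-associated invariant T cells, was in 0 of 82 and 0 of 48 paired family cells.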

How the data were processed

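The deposited contig list of each TCR library was read as the authors left it, 733 WT contigs in 408 cells and 709 p53 KO contigs in 392 cells. Reads and UMIs per contig are whole-number counts, per the file headers, without normalization, and summed to 4280 and 4138 UMIs. The authors ran Cell Ranger 6.1.1 and named the mm10 build, per the submitters' processing notes. Which TCR reference was used is not given in the sources at hand.

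Members were taken by V name, and members, gene lists and tests were chosen with earlier results of these data known. A cell was represented by its beta contig of most UMIs, and a clonotype by its beta and alpha chains of most UMIs. V ends kept were the longest match to the first 15 bases (5 codons) most common for the segment, J ends the longest match to the end common to the J gene. A TRBV name counted as changed at a ratio of 1.5, and a J name was named among the 3 most used. Chains in 4 or more cells, repeated CDR3s, the 3 leading TRAV families and NKT chains were named by rule. A count of 0 allows a share of 3 counts of the total.

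No doublet caller was run. An alternative dropped possible multiplets, meaning cells with at least 2 TRB or 3 TRA contigs. Other alternatives were cells or clonotypes as the unit, a minimum of 3 UMIs, every TRB contig, no combined name and no largest clone. Pooling the names of TRBV13-2, counting each beta chain once for alpha partners, and leaving out the 2 largest other chains were added after the data were seen. Counting was tested on simulated contigs. Tools were Python 3.11.15 with scipy 1.17.1, numpy 2.4.6 and pandas 2.3.3, and matplotlib 3.10.9 for plots.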

Additional observations from a re-analysis of the deposited data

Results flagged for a closer look

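Beta contigs that were not the leading one of their cell are in the counts of contigs by name, but in no count of distinct chains, cells or clonotypes. In WT 4 such contigs carried a family name, and in p53 KO there were 3. Of 14 WT and 22 p53 KO cells with more than 1 beta contig, 5 and 7 held a family chain. The family chain led in 3 of the 5 and 5 of the 7, and 2 and 1 of the cells held a family chain in both places. Whether these are single cells with 2 beta chains or droplets of 2 cells was not tested.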

How the results depend on the processing

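Over 23 results, 140 of 147 alternative values stayed within the main interval, SD or 1.5 times the main count, and 7 moved. Without the combined name the family share fell from 26.3% to 16.2% in WT and from 26.1% to 17.0% in p53 KO, since that name holds most TRBV13-2 chains. By cells it was 19.7% in p53 KO. With the names pooled, TRBV13-2 had 13.1% of WT and 12.9% of p53 KO chains. With 3 or more UMIs per contig the plain name TRBV13-2 kept 1 of 192 p53 KO chains (0.521%), and 1 of the 2 repeated CDR3s was left. Every share rests on 1 library per genotype, and members such as TRBV13-3 on 7 to 11 chains, and these counts limit the precision. No paired analysis was possible because each genotype has 1 TCR library and no result comes from a test.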
